A study of Mus musculus with 20 samples.

Results

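The 31 genes described here encode the machinery that burns fatty acids and ketone bodies, and they were measured by RNA sequencing in 2 brain regions of diabetic and control mice. They were chosen by name from the gene count table as genes of fatty acid oxidation and ketone metabolism. All 31 were found among the 57180 genes of the table, and all 31 had enough reads to be tested in every comparison. The mice were from a model of painful diabetic neuropathy induced by streptozotocin (STZ), a toxin that kills pancreatic beta cells. STZ mice had 1 intraperitoneal dose of 200 mg/kg and control mice had vehicle, and both were sampled at week 7. Punches of the paraventricular thalamic nucleus (PVT) and of the posterior insular cortex (pIC) were cut from fresh brains, and poly(A) RNA was sequenced in stranded, paired-end libraries. There were 6 PVT STZ, 4 PVT control, 6 pIC STZ and 4 pIC control libraries, 20 in all. The sources used here give no strain, sex, age or blood glucose. The labels do not say that each library of a group came from a separate mouse, so p-values measure the spread between libraries, part of which may be technical.

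Mitochondrial fatty acid oxidation starts when carnitine palmitoyltransferases pass long acyl chains into the matrix. A spiral of dehydrogenation, hydration, a second dehydrogenation and thiolysis then shortens the chain and yields acetyl-CoA. Ketone bodies made in the liver are the other lipid-derived fuel, and they rise in blood when insulin is short. In brain, neurons use ketone bodies readily, whereas fatty acid oxidation is ascribed mostly to glia, astrocytes above all. Peroxisome proliferator-activated receptors (PPARs) are nuclear receptors that bind fatty acids and switch on many of these genes.

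Libraries held 17.9 M to 25.5 M counts. Levels are given as CPM, counts scaled to a common library total that was first adjusted by the trimmed mean of M-values (TMM), and CPM are not divided by gene length unless so stated. The PVT punches carried transcripts of tissue beyond the named nucleus, among them those of choroid plexus and ependyma. All 12 choroid plexus and all 12 ependyma markers were higher in PVT than in pIC of control mice (edgeR). All 12 oligodendrocyte markers, of a cell type present in both regions, were higher in PVT as well. Of 10 thalamus markers 7 were higher and 1 lower. Of all genes tested there, 25.5% were called higher and 22.4% lower. Summed thalamus markers ranged from 979 to 2470 CPM in PVT STZ and from 1030 to 1500 CPM in PVT control libraries, against 885 to 1050 CPM in pIC STZ and 968 to 1030 CPM in pIC control libraries. PVT STZ replicates 1, 2 and 3 and PVT control replicate 2 had the lowest mean log2 level of thalamus markers among PVT libraries. PVT control replicate 4 held 11800 CPM of growth hormone (Gh) and 832 CPM of Pomc, both pituitary transcripts, while Gh was at most 2.77 CPM in the other PVT libraries. Summed hypothalamus and pituitary markers were 14900 CPM in that replicate. They were 3.44, 7.63, 13.6 and 5.58 CPM in the 4 PVT libraries lowest in thalamus markers, and 119 to 881 CPM in the rest. In bulk tissue, fewer cells of a type and less RNA per cell cannot be told apart.

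The start regions of 5 members are shown for reading beside the values, Acads, Ucp2 and Cpt2 for a result and Cpt1a and Hadhb for their sequence. Acads was lower in PVT of STZ mice and Ucp2 was higher in pIC of STZ mice. Cpt2 was the member whose gap between regions passed a minimum fold. Cpt1a is the entry enzyme and, like Cpt1c and Echs1, holds both marked motifs, and Hadhb shares its window with a neighbour. Each run holds 250 bases before and 50 bases after the start given by RefSeq on the GRCm38.p6 build, a build other than that of the counts. Capitals mark the letters AGGTCA, a core nuclear receptor motif, or GGGCGG, the GC box, on either strand.
Acads, chr5:115119297-115119596, minus strand: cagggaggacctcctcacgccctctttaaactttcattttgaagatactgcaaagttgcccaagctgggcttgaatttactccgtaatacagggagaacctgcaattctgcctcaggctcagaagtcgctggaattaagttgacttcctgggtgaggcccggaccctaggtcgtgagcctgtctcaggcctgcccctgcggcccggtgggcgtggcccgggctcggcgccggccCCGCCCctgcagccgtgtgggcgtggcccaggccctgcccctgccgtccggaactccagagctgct
Ucp2, chr7:100493108-100493407, plus strand: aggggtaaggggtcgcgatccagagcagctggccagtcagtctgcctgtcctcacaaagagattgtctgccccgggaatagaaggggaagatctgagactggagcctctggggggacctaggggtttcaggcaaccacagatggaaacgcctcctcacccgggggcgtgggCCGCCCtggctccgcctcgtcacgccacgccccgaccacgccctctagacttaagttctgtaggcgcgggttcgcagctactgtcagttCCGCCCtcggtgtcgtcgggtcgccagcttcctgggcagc
Cpt2, chr4:107923540-107923839, minus strand: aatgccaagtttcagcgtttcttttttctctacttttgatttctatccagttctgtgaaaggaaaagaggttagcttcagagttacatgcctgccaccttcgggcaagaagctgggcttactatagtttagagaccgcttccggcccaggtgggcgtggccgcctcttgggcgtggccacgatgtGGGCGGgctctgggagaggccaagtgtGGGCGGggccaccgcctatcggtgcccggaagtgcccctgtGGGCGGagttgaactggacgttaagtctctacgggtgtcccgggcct
Cpt1a, chr19:3323051-3323350, plus strand: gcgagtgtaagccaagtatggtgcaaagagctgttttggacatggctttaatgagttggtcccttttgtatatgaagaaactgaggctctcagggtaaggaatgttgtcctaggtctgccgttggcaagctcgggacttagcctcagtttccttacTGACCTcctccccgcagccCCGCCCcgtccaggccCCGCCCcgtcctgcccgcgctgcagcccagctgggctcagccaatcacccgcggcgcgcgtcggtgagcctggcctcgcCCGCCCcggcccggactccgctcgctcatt
Hadhb, chr5:30155003-30155302, plus strand: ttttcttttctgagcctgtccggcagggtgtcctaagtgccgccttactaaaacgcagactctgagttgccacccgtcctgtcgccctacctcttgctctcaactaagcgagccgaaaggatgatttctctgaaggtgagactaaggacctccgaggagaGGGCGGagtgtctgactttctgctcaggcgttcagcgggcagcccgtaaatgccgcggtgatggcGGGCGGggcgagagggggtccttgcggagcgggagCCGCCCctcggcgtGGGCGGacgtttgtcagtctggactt

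RefSeq gave such a window for 27 of the 31 members, and none for Acot6, Acaa2, Decr1 and Acat1. The GC box was found in 21 of 27 members (77.8%) and in 35.7% of all 32851 windows of the same length. AGGTCA was found in 5 of 27 members (18.5%), namely Acadm, Acadvl, Cpt1a, Cpt1c and Echs1, against 16.3% of all windows. The repeat AGGTCANAGGTCA, which PPARs are known to bind and which contains AGGTCA, was in 0 of 27 members and in 0.0396% of all windows. The E-box CACGTG was in 0 of 27 members and in 7.15% of all windows, and the extended motif TCAAGGTCA, which also contains AGGTCA, was in 0 of 27 and 0.423%. Both strands were searched, and a match describes the letters and not a bound site. Members were counted as genes and the rest as windows, which were not limited to genes expressed in these libraries. Hadha and Hadhb, which encode the 2 subunits of the mitochondrial trifunctional protein, start head to head, so that 228 of the 300 bases of their windows are shared. Acot1, Acot2 and Acot6 lie with Acot3, Acot4 and Acot5 in a cluster on chromosome 12.

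Levels were divided by the joint length of all annotated exons of a gene (GENCODE vM21), which can exceed the length of its main transcript. By this measure the most abundant member was Oxct1, the mitochondrial enzyme that commits ketone bodies to oxidation. Its level was 80.2 ± 3.35 CPM per kb in PVT STZ, 74.5 ± 8.93 in PVT control, 88.8 ± 3.24 in pIC STZ and 88.6 ± 2.1 in pIC control libraries (SD, n = 6, 4, 6 and 4). Etfb, Acat1, Etfa and Acadl filled the next places in every group. These places depend on the length used, which was 1164 bases for Etfb and 8286 bases for Echs1. Undivided, Echs1 had the higher mean in PVT STZ libraries, 48 CPM against 34.9 CPM for Etfb. Etfb, the beta subunit of the electron transfer flavoprotein, stood at 30.0 ± 1.68 CPM per kb in PVT STZ and 35.8 ± 3.26 CPM per kb in PVT control libraries. Acat1, the thiolase that ends ketone breakdown, stood at 25.8 ± 0.962 CPM per kb in PVT STZ and 27.1 ± 1.32 CPM per kb in PVT control libraries. In pIC the ranges of Etfb and Acat1 overlapped, so that their order was not fixed beyond the spread. Ppara, the fasting-response receptor of liver, was lowest in every group, with 0.426 ± 0.0994 CPM per kb in PVT STZ, 0.372 ± 0.188 in PVT control, 0.382 ± 0.11 in pIC STZ and 0.306 ± 0.0957 in pIC control libraries. Acot6, divided by 6413 bases, and Ehhadh came just above it by this measure.

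The first comparison asks whether the diabetic state changed these genes in PVT. Acot6 and Acads were lower in PVT of STZ mice. Acot6 encodes a peroxisomal acyl-CoA thioesterase, which splits acyl-CoA into free fatty acid and CoA, and Acads encodes the dehydrogenase that opens the spiral for short chains. Among the 31 members, 2 fell and 0 rose (edgeR quasi-likelihood test, adjusted p under 0.05), where 1.59% of the 17076 genes tested were called lower, 0.474% higher and 2.07% in either direction. At an unadjusted p under 0.05, 16 members were lower and 1 was higher, against 10.2% and 7.55% of all genes, and DESeq2 and limma-voom also called 0 members higher. Log2 fold changes were below 0 for 26 of 31 members, against 49.2% of all genes, with a median of −0.16 beside 0.0038 over all genes tested.

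Acot6 ranged from 6.9 to 8.56 CPM in PVT STZ libraries, with a median of 7.41 CPM, against 11.0, 11.6, 11.0 and 10.7 CPM in PVT control libraries. Every STZ library was below every control library. The log2 fold change was −0.55 (SE 0.0778, edgeR adjusted p = 0.00424, n = 6 and 4), or 0.683 times the control level. Without the 4 PVT libraries lowest in thalamus markers it was −0.49 with an adjusted p of 0.164, an alternative chosen after seeing the data that leaves 3 libraries in each group. Calls over all genes also fell there, to 0.413% from 2.07%, so a call lost in that setting is not particular to a gene.

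Acads ranged from 5.87 to 7.75 CPM in PVT STZ libraries, with a median of 7.0 CPM, against 9.14, 9.25, 8.7 and 10.4 CPM in PVT control libraries. Here too the groups did not overlap, and the replicate with the pituitary transcripts was the highest. The log2 fold change was −0.44 (SE 0.0995, edgeR adjusted p = 0.0494), just inside the threshold. Without PVT control replicate 4 it was −0.38 (adjusted p = 0.161), and leaving out any other single PVT library except STZ replicate 6 also took it past 0.05, with adjusted p from 0.0716 to 0.108.

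Acot1 encodes a cytosolic thioesterase induced by fasting in liver. It ranged from 11.3 to 17.0 CPM in PVT STZ libraries, with a median of 15.1 CPM, against 19.8, 18.5, 21.4 and 19.8 CPM in PVT control libraries. The groups did not overlap, yet the log2 fold change of −0.42 missed the threshold (SE 0.101, edgeR adjusted p = 0.0607). DESeq2 gave −0.41 with an adjusted p of 0.009, and without PVT STZ replicate 5, the lowest library, edgeR gave −0.35 with 0.0467. Acot2, the mitochondrial member of the family, had a log2 fold change of −0.35 (adjusted p = 0.154) with overlapping groups. Acot1 and Acot2 share 12.4% and 17.1% of their 100-base windows with other genes, mostly each other, so their counts depend on how the authors treated reads that match both.

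The groups did not overlap for 9 members, all lower in STZ mice, where 4.29% of all genes were lower without overlap and 1.85% were higher. They were Acot6, Acads, Acot1, Acadl, Hadha, Hadh, Etfa, Etfb and Acaa1a. Of these, Acadl, the long-chain dehydrogenase, ranged from 40.5 to 45.5 CPM in PVT STZ and from 46.9 to 51.6 CPM in PVT control libraries, with a log2 fold change of −0.19 (adjusted p = 0.0872). Etfb ranged from 33.1 to 38.4 CPM in PVT STZ and from 39.3 to 47.3 CPM in PVT control libraries, with a log2 fold change of −0.25 (adjusted p = 0.0974). These differences were small, and neither passed the adjusted threshold. Etfb shares 35.8% of its windows with an overlapping or near-identical gene model.

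**Figure D1:**
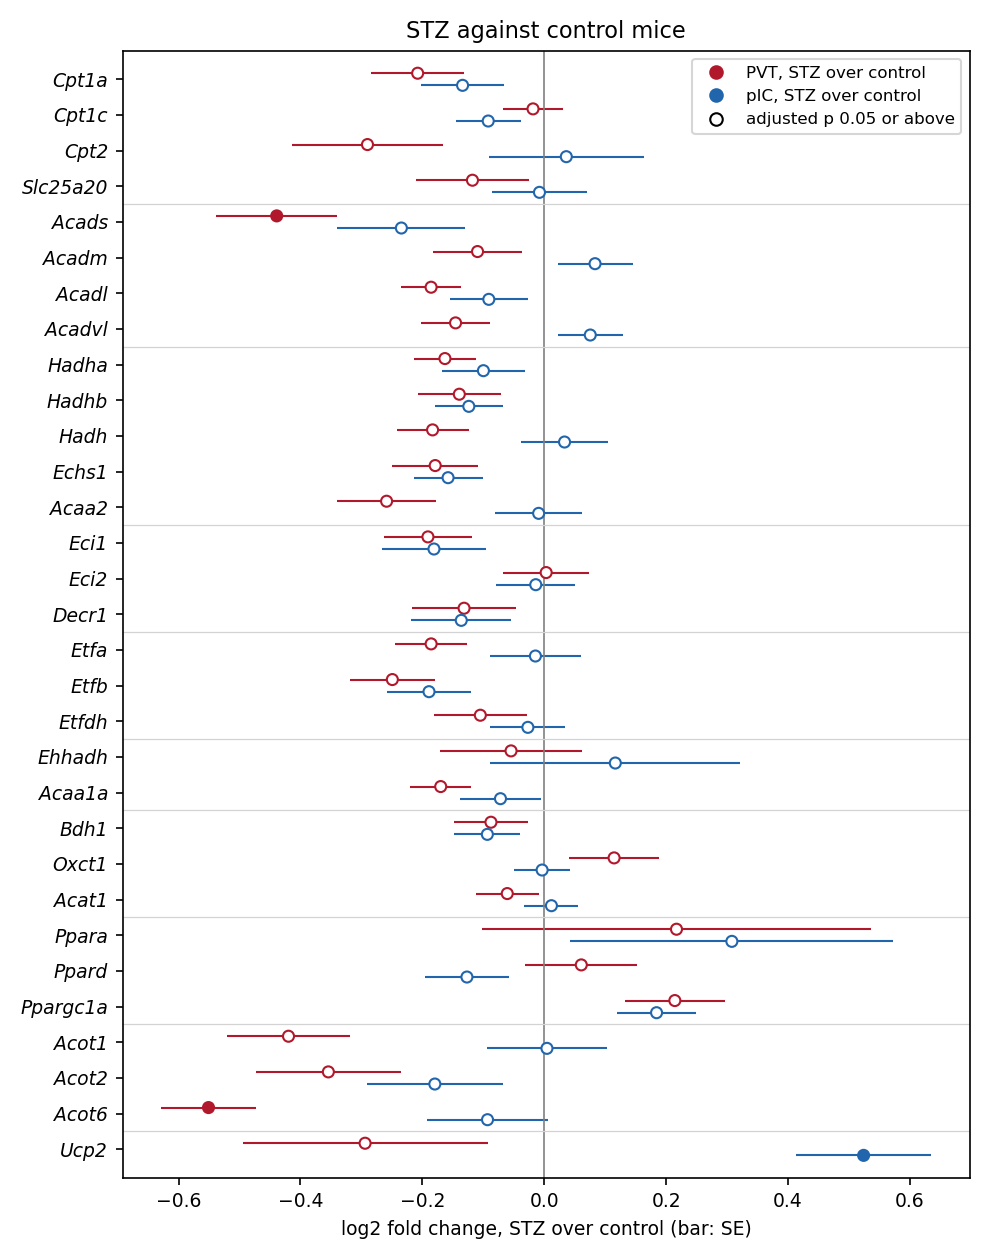
Log2 fold change of each of the 31 members in STZ over control mice, in PVT (red) and pIC (blue), with the SE as a bar; filled points have an adjusted p under 0.05 and grey lines part the members by role. In PVT 26 members lie left of 0 and 2 are filled, and in pIC 21 lie left of 0 and 1, Ucp2, is filled.

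By role, the 4 members of the carnitine shuttle had log2 fold changes from −0.29 to −0.02 in PVT and none passed the test. Cpt2, which rebuilds acyl-CoA inside the matrix, had −0.29 (adjusted p = 0.253), Cpt1a, the rate-setting entry enzyme, had −0.21 (0.187), and the carrier Slc25a20 and the brain isoform Cpt1c had −0.12 and −0.02. The other dehydrogenases Acadm and Acadvl had −0.11 and −0.15. The 5 members of the later steps lay between −0.26 (Acaa2, the last thiolase, adjusted p = 0.134) and −0.14 (Hadhb). Eci1, an isomerase for unsaturated chains, had −0.19, its relative Eci2 had 0.00, and Decr1, the reductase for unsaturated chains, had −0.13.

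Ketone use showed no change past the test. Oxct1 ranged from 278 to 312 CPM in PVT STZ libraries, with a median of 294 CPM, against 258, 311, 295 and 239 CPM in PVT control libraries. The groups overlapped and the log2 fold change was 0.11 (adjusted p = 0.454). Bdh1, which interconverts the 2 main ketone bodies, had −0.09 and Acat1 had −0.06. Each of the 3 regulators had a positive log2 fold change that missed the threshold, 0.22 for Ppara, 0.06 for Ppard and 0.21 for the coactivator Ppargc1a (adjusted p = 0.208). Of the peroxisomal enzymes, the thiolase Acaa1a had −0.17 (adjusted p = 0.114) and the bifunctional enzyme Ehhadh −0.05. In electron transfer, Etfa had −0.19 and Etfdh, which hands the electrons to ubiquinone, −0.10.

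Markers of some cell types also differed between PVT STZ and PVT control libraries. The 12 ependyma markers summed to 79.4 to 111 CPM in PVT STZ libraries, against 129 to 182 CPM in PVT control libraries, with no overlap, and 9 of 12 fell. Choroid plexus markers summed to 1390 to 3440 CPM in PVT STZ, against 3050 to 6210 CPM in PVT control libraries, and edgeR called 0 of 12, with 10 of 12 at an unadjusted p under 0.05 and 3 called lower by DESeq2. Oligodendrocyte markers summed to 6570 to 9230 CPM in PVT STZ, against 8200 to 10200 CPM in PVT control libraries, and 3 of 12 fell. All 12 had log2 fold changes below 0 (median −0.34), 8 of them at an unadjusted p under 0.05 in edgeR and 8 without overlap of the groups. By edgeR, 1 of 10 microglia markers and 2 of 10 markers of mural cells and fibroblasts were also lower, and 0 of either list higher. Astrocyte markers summed to 4660 to 5410 CPM in PVT STZ, against 3920 to 5070 CPM in PVT control libraries, with 0 of 12 called by edgeR, 3 at an unadjusted p under 0.05 and 2 by DESeq2. Striatal neuron markers summed to 268 to 3730 CPM in PVT STZ, against 345 to 1610 CPM in PVT control libraries, all 10 with log2 fold changes above 0 (median 0.67) and 0 called by edgeR, DESeq2 or limma-voom, or at an unadjusted p under 0.05 in edgeR. Their part in the lower level of Acot6 and Acads was not tested.

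**Figure D2:**
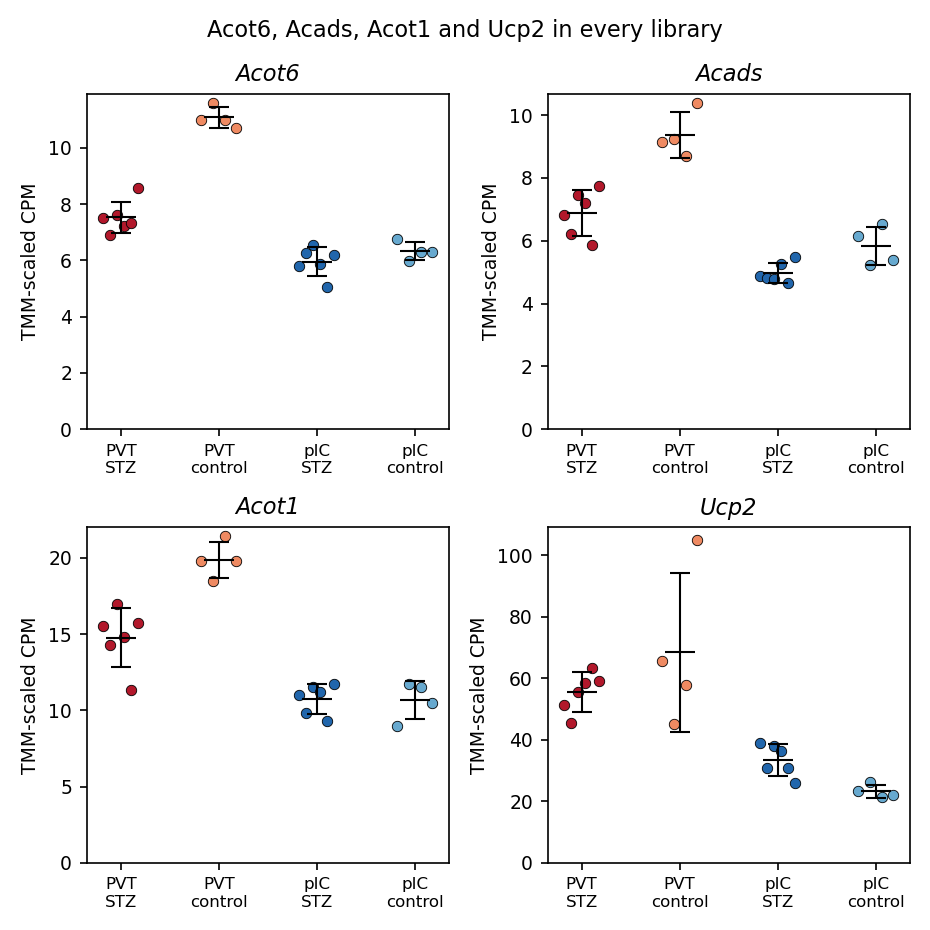
Level of Acot6, Acads, Acot1 and Ucp2 in each library, in TMM-scaled CPM, with the mean and SD of each group (n = 6 STZ and 4 control for each region). The PVT STZ points of the first 3 genes lie below all PVT control points, and for Ucp2 the highest point, 105 CPM, is PVT control replicate 4.

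The second comparison asks the same of pIC. Ucp2, an inner-membrane carrier of mitochondria linked to the use of fatty acids over glucose, rose in STZ mice. It was 1 of 31 members called, with 0 lower, where 0.432% of the 16189 genes tested were called higher, 0.964% lower and 1.4% in either direction. At an unadjusted p under 0.05, 2 members were higher and 4 lower, against 5.75% and 6.08% of all genes. Of the 31, 21 had a log2 fold change below 0, against 50.2% of all genes, with a median of −0.03 beside −0.00063 over all genes tested.

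Ucp2 ranged from 26.0 to 39.1 CPM in pIC STZ libraries, with a median of 33.7 CPM, against 23.4, 26.2, 21.5 and 22.0 CPM in pIC control libraries. The lowest STZ library, at 26.0 CPM, lay just under the highest control library, so the groups overlapped by that pair. The log2 fold change was 0.52 (SE 0.111, edgeR adjusted p = 0.0348), or 1.44 times the control level. The call was lost without any 1 of the 4 control libraries (adjusted p = 0.114, 0.0567, 0.114 and 0.137 without replicates 1, 2, 3 and 4), without STZ replicate 1 (0.0646) or 4 (0.0799), and in the fit of all 20 libraries (0.217).

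Ppargc1a, the coactivator that drives mitochondrial gene expression, had the next smallest p among members. It ranged from 39.3 to 49.0 CPM in pIC STZ libraries, with a median of 45.2 CPM, against 37.8, 38.9, 41.3 and 37.3 CPM in pIC control libraries. All STZ libraries but the lowest were above every control library, and the log2 fold change of 0.18 did not pass (edgeR adjusted p = 0.25). Its value in PVT was close in size at 0.21 (adjusted p = 0.208).

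Echs1, the hydratase of the spiral, ranged from 37.6 to 40.7 CPM in pIC STZ libraries, with a median of 38.3 CPM, against 41.7, 47.8, 40.8 and 41.8 CPM in pIC control libraries. It was the 1 member whose pIC groups did not overlap downwards, where 2.31% of all genes did so. The log2 fold change was −0.16 (edgeR adjusted p = 0.261). Acads had −0.23 in pIC (adjusted p = 0.399), Etfb −0.19 (0.271), Acot6 −0.09 (0.782) and Acot1 0.00 (0.992). The ketone enzymes Oxct1, Acat1 and Bdh1 had 0.00, 0.01 and −0.09. Ependyma markers were low in pIC, summing to 9.88 to 18.7 CPM in STZ and 9.58 to 13.4 CPM in control libraries.

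Among the other marker lists in pIC, edgeR called 1 of 12 astrocyte markers higher and 1 lower, and 1 of 12 endothelial markers lower. Of all genes tested there, 0.432% were called higher and 0.964% lower. The 10 striatal neuron markers all had log2 fold changes above 0 in pIC (median 0.73), with 0 called by edgeR, DESeq2 or limma-voom and 0 at an unadjusted p under 0.05. They summed to 420 to 3780 CPM in pIC STZ libraries, against 417 to 1460 CPM in pIC control libraries. The highest sum was that of pIC STZ replicate 3, which also held 150 CPM of choroid plexus markers, where the other pIC libraries had at most 28.9 CPM. The Ucp2 call held without that library. The 5 blood markers were also all above 0 (median 0.57), and summed to 216 to 380 CPM in pIC STZ libraries, against 136 to 267 CPM in pIC control libraries. edgeR and DESeq2 called 0 of the 5, with 3 at an unadjusted p under 0.05 in each, and limma-voom called 4 higher. The part of these cell types in the pIC values was not tested.

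Whether the STZ effect differed between regions was tested as the interaction over all 20 libraries. The labels number PVT and pIC libraries alike and do not say whether libraries of 1 number come from the same mouse. This test and the comparisons of the regions treat them as independent. No difference passed the test, either for the 31 members or for any of the 17427 genes tested (edgeR, 0% called in either direction). At an unadjusted p under 0.05, 7 members had a lower value in PVT and 0 a higher one, against 3.02% and 1% of all genes, and DESeq2 and limma-voom called 0 members. DESeq2 called 0.023% of all genes. The 3 members of smallest p were Acot6, with −0.47 (SE 0.113, unadjusted p = 0.00046, adjusted p = 0.701), Ucp2, with −0.83 (SE 0.243, unadjusted p = 0.00294, adjusted p = 0.909), and Acadvl, with −0.23 (unadjusted p = 0.00327, adjusted p = 0.909). Over all members, 26 of 31 had a value below 0, against 50.1% of all genes. A negative value means a lower STZ effect in PVT than in pIC.

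Acadvl encodes the very-long-chain dehydrogenase. It ranged from 44.2 to 47.9 CPM in PVT STZ libraries, with a median of 46.4 CPM, against 52.2, 45.9, 52.9 and 53.5 CPM in PVT control libraries. In pIC it ranged from 35.7 to 37.6 CPM in STZ libraries, with a median of 36.2 CPM, against 33.0, 36.9, 35.2 and 32.6 CPM in control libraries. Its groups overlapped in both regions, each time through replicate 2 of the controls. For Ucp2, PVT STZ libraries ranged from 45.3 to 63.4 CPM, with a median of 57.1 CPM, against 65.6, 45.1, 57.9 and 105 CPM in PVT control libraries. The PVT control libraries thus spanned more than the STZ libraries did. Without PVT control replicate 4, the library with the pituitary transcripts, the Ucp2 interaction was −0.55.

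Genes around the pathway were taken from 8 lists. In the list of ketone synthesis and monocarboxylate transport, 4 of 12 genes fell in PVT (median log2 fold change −0.10) and 2 of 12 in pIC (median −0.22). Of all genes tested, 1.59% were called lower in PVT (median 0.0038) and 0.964% in pIC (median −0.00063). The genes that passed and are described here encode carriers, a carrier's chaperone and an acetate-activating enzyme. Slc16a1, the carrier MCT1 of lactate and ketone bodies on endothelium and glia, fell in both regions.

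Slc16a1 ranged from 23.7 to 37.0 CPM in PVT STZ libraries, with a median of 29.0 CPM, against 43.5, 40.6, 40.1 and 40.7 CPM in PVT control libraries. In pIC it ranged from 22.3 to 32.3 CPM in STZ libraries, with a median of 23.4 CPM, against 36.6, 36.3, 33.9 and 39.5 CPM in control libraries. No STZ library reached a control library in either region. The log2 fold change was −0.46 in PVT (SE 0.103, edgeR adjusted p = 0.0474) and −0.56 in pIC (SE 0.0947, edgeR adjusted p = 0.00685). The pIC call held under all 18 alternatives. The PVT call held under 7 of 19, with adjusted p from 0.00571 to 0.24, and was lost without any 1 library except STZ replicate 5. Endothelial markers summed to 287 to 355 CPM in PVT STZ and 297 to 310 CPM in PVT control libraries, and to 314 to 367 CPM in pIC STZ and 341 to 362 CPM in pIC control libraries. In PVT edgeR called 0 of the 12 (2 higher and 2 lower at an unadjusted p under 0.05), limma-voom called 0, and DESeq2 called Ly6c1 higher. In pIC 8 of the 12 had log2 fold changes below 0 (median −0.11), 4 were lower at an unadjusted p under 0.05, and edgeR called 1 lower, the receptor Tek, while DESeq2 and limma-voom called Tek and Tie1 lower. Their part in the fall of Slc16a1 was not tested.

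Bsg, the chaperone that carries MCT1 to the membrane, ranged from 375 to 447 CPM in PVT STZ libraries, with a median of 389 CPM, against 489, 498, 498 and 508 CPM in PVT control libraries. The groups were well apart, and the log2 fold change was −0.32 (edgeR adjusted p = 0.0218). In pIC it was −0.22 and did not pass (adjusted p = 0.129). Acss1, which makes acetyl-CoA from acetate in mitochondria, ranged from 23.4 to 29.6 CPM in PVT STZ libraries, with a median of 26.1 CPM, against 35.4, 36.8, 34.3 and 29.9 CPM in PVT control libraries. Its groups came within a fraction of a CPM of meeting, and its log2 fold change was −0.37 (adjusted p = 0.0465). In pIC Acss1 ranged from 12.1 to 18.8 CPM in STZ libraries, with a median of 15.1 CPM, against 19.8, 23.4, 25.0 and 19.4 CPM in control libraries, again without overlap, with −0.51 (adjusted p = 0.0434). Slc16a6, a carrier of the same family that exports ketone bodies from liver in zebrafish, was the fourth gene called in PVT, with −0.63 (adjusted p = 0.0485), and had −0.25 (0.513) in pIC. It falls outside the rule for named genes and was chosen after its values were seen. Bsg lost its PVT call without PVT STZ replicate 3 or 4 or control replicate 1, 3 or 4 (adjusted p from 0.0539 to 0.0646), and Acss1 and Slc16a6 lost theirs without any 1 library except STZ replicate 6 (up to 0.125 and 0.139). Without the 4 PVT libraries lowest in thalamus markers the PVT calls of Slc16a1 (−0.32, adjusted p = 0.24), Bsg (−0.25, 0.25), Acss1 (−0.34, 0.252) and Slc16a6 (−0.63, 0.244) were all lost. In pIC Acss1 lost its call without STZ replicate 1, 4 or 6 or any 1 control library (up to 0.171).

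PPAR target genes did not move in 1 direction. In PVT 1 of 14 tested rose and 1 fell, where 0.474% of all genes were called higher and 1.59% lower. In pIC 2 of 13 rose and 2 fell, where 0.432% were called higher and 0.964% lower. Plin4, a lipid droplet coat protein, ranged from 51.7 to 71.7 CPM in PVT STZ libraries, with a median of 59.0 CPM, against 19.2, 7.58, 13.3 and 18.1 CPM in PVT control libraries. In pIC Plin4 ranged from 15.4 to 46.9 CPM in STZ libraries, with a median of 27.4 CPM, against 7.3, 2.69, 6.03 and 10.4 CPM in control libraries. All STZ libraries exceeded all control libraries in both regions. The PVT call of Plin4 held under all 19 alternatives. The pIC log2 fold change was 2.16 (SE 0.404, edgeR adjusted p = 0.0402), a call that 7 of 18 alternatives kept. The pIC call was lost without any 1 library except STZ replicate 5 or control replicate 4 (up to 0.119).

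Plin2, the general lipid droplet coat protein and a standard PPAR target, went the other way. It ranged from 6.24 to 7.18 CPM in PVT STZ libraries, with a median of 6.78 CPM, against 9.7, 9.39, 9.46 and 11.8 CPM in PVT control libraries. The groups did not overlap, and the log2 fold change was −0.56 (edgeR adjusted p = 0.0095). Without the 4 PVT libraries lowest in thalamus markers it was −0.66 and the call was lost (adjusted p = 0.107). In pIC it was −0.59 (adjusted p = 0.0431), the fourth gene called there and named after its values were seen, and the call was lost without any 1 pIC library except STZ replicate 3 or control replicate 1 (up to 0.169). Angptl4, a fasting-induced inhibitor of lipoprotein lipase, ranged from 3.41 to 7.64 CPM in pIC STZ libraries, with a median of 4.63 CPM, against 2.6, 2.11, 2.16 and 2.07 CPM in pIC control libraries. The groups did not overlap, and the log2 fold change was 1.15 in pIC (adjusted p = 0.0156), against 0.35 (0.384) in PVT. The call was lost without control replicate 2, 3 or 4 (0.0766, 0.0566 and 0.0706). Klf10, an immediate-early transcription factor, ranged from 32.2 to 50.4 CPM in pIC STZ libraries, with a median of 36.2 CPM, against 77.1, 84.4, 65.9 and 78.5 CPM in pIC control libraries. Its log2 fold change in pIC was −1.0 (adjusted p = 8.06e-04), again with no overlap, and the call was lost in the fit of all 20 libraries (−0.99, adjusted p = 0.178).

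Among 12 tested genes of malonyl-CoA control and carnitine supply, Aldh9a1, an enzyme of carnitine synthesis, was lower in PVT with a log2 fold change of −0.29 (edgeR adjusted p = 0.0442). That call was lost without any 1 library except STZ replicate 6 or control replicate 2 (up to 0.147) and without the 4 PVT libraries lowest in thalamus markers (0.181), and in pIC 0 genes were called by edgeR, DESeq2 or limma-voom and 0 had an unadjusted p under 0.05 in edgeR. The other 5 lists held peroxisomal oxidation, uptake and activation, further thioesterases, further dehydrogenases, and uncoupling proteins with PPAR cofactors. edgeR called 0 of their genes in either region, with between 2 and 4 genes a list at an unadjusted p under 0.05 in PVT and between 0 and 4 in pIC. In these lists the genes called by DESeq2 included Acot11, higher, and Them4, lower, in PVT, both thioesterases, and Rxra, higher, and Pprc1, lower, in pIC, and limma-voom called Pprc1 lower in pIC. These were named after their values were seen.

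**Figure D3:**
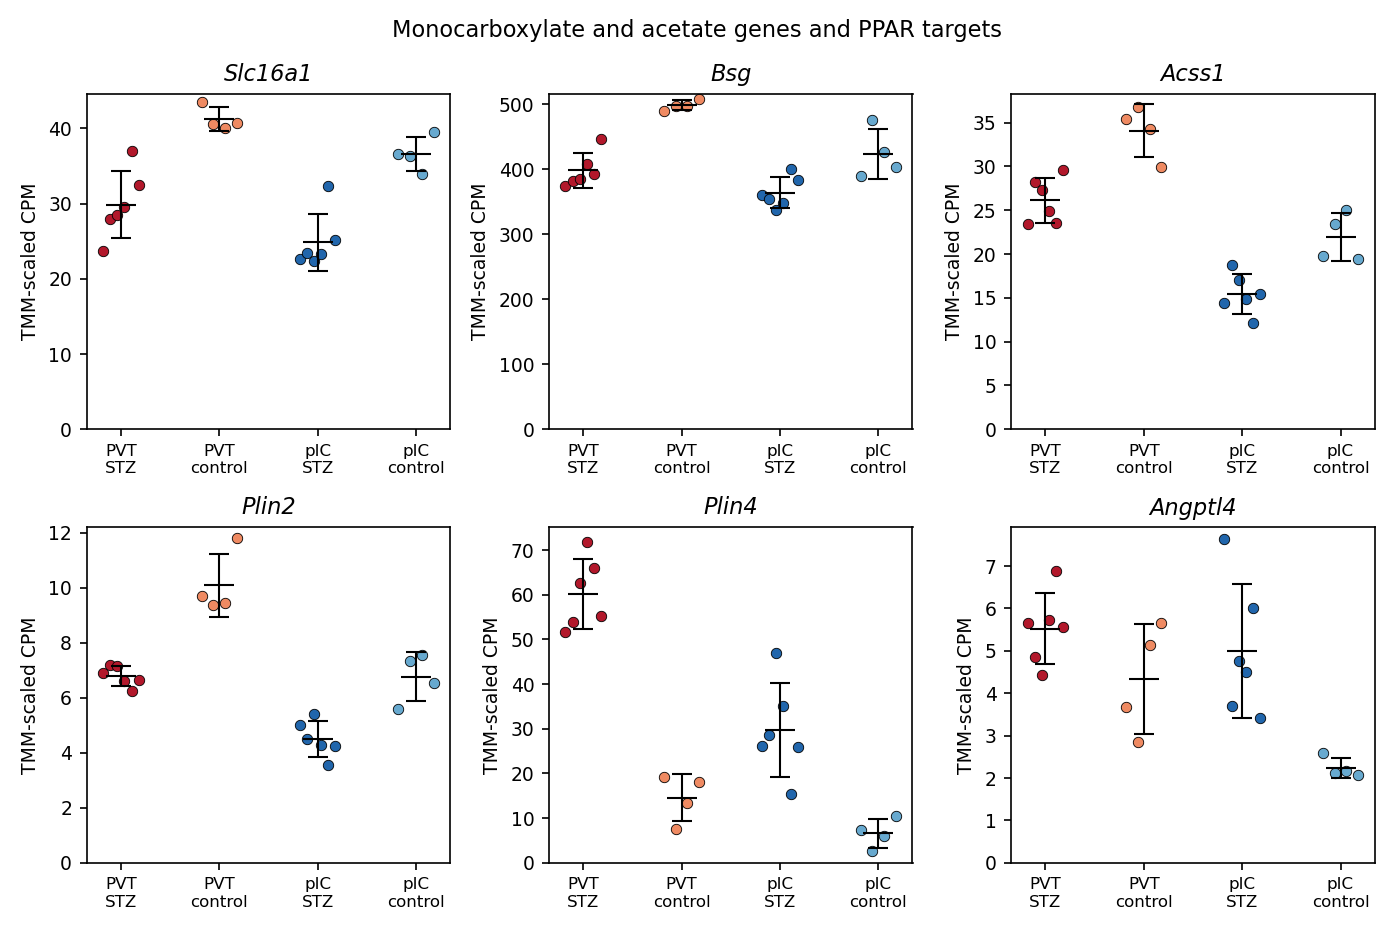
Level of 3 genes of monocarboxylate and acetate use (top) and 3 PPAR targets (bottom) in each library, in TMM-scaled CPM, with the mean and SD of each group (n = 6 STZ and 4 control for each region). Slc16a1, Acss1, Plin2 and Plin4 do not overlap between STZ and control libraries in either region.

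Most members differed between the regions. Most oxidation genes were higher in PVT than in pIC, while Oxct1 and Ppard were lower. In STZ mice 22 of 31 members were higher in PVT and 2 lower (edgeR), where 26% and 23.1% of the 16489 genes tested were called so, 49.1% in all. In control mice 23 were higher and 2 lower, where 25.5% and 22.4% of 16614 genes were, 47.8% in all. The median log2 difference of the members was 0.34 in STZ mice and 0.44 in control mice, beside 0.023 and 0.025 over all genes tested. In control mice the 4 PVT libraries did not overlap the 4 pIC libraries for 23 members higher in PVT, where 24.2% of all genes were, and in STZ mice for 17, where 14.4% were.

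Cpt2 ranged from 9.17 to 13.7 CPM in PVT STZ libraries, with a median of 10.8 CPM, against 4.43 to 5.94 CPM in pIC STZ libraries, with a median of 4.92 CPM. In control mice it was 13.5, 11.1, 14.1 and 15.3 CPM in PVT, against 4.39, 4.76, 5.98 and 4.84 CPM in pIC. PVT libraries were above all pIC libraries by a wide margin in both. The log2 difference was 1.10 in STZ mice (adjusted p = 7.06e-06) and 1.44 in control mice (SE 0.137, edgeR adjusted p = 2.06e-05). Cpt2 in control mice was the 1 member to pass when the difference was tested against a minimum fold of 2 (adjusted p = 0.0195), and in STZ mice none passed. Of all genes tested, 5.25% passed that test in control mice and 3.6% in STZ mice.

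Ucp2 had the largest log2 difference among members in control mice, 1.56 (SE 0.249, edgeR adjusted p = 0.00134), and it was 0.73 in STZ mice (adjusted p = 1.09e-04). Without PVT control replicate 4 the value in control mice was 1.26. Acot1, Acaa2 and Acot6 followed in control mice, with 0.90, 0.86 and 0.81, and had 0.47, 0.60 and 0.34 in STZ mice. Acaa2 was 34.5, 30.9, 28.5 and 36.5 CPM in PVT control, against 18.1, 17.8, 17.7 and 18.3 CPM in pIC control libraries. The pIC values were nearly equal and all far below those of PVT. These control values enter both this comparison and the STZ comparisons above, so the smaller gaps in STZ mice are not a separate observation.

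By role, all 4 acyl-CoA dehydrogenases, all 5 enzymes of the later steps, all 3 unsaturated chain enzymes, all 3 electron transfer genes and both peroxisomal enzymes were higher in PVT, in STZ and in control mice. The call of Ehhadh in STZ mice was borderline, with a log2 difference of 0.43 (adjusted p = 0.0413), and 11 of 22 alternatives kept it. It was lost without pIC STZ replicate 1, 2 or 6 or any 1 PVT STZ library except replicate 2 (adjusted p up to 0.0913). Without the 4 PVT libraries lowest in thalamus markers the STZ calls of Ehhadh (0.139) and Decr1 (0.0695) were lost. The dehydrogenases lay between 0.26 and 0.48 in STZ mice and between 0.47 and 0.69 in control mice on the log2 scale. The later steps lay between 0.31 and 0.60 in STZ mice and between 0.34 and 0.86 in control mice. Eci1 had the steadiest large gap, 0.67 in STZ mice and 0.69 in control mice. In the carnitine shuttle Cpt1a was higher in PVT with 0.47 in STZ mice and 0.56 in control mice. Slc25a20 missed the threshold with 0.16 (adjusted p = 0.0702) and 0.27 (0.0507), and the neuronal isoform Cpt1c had 0.00 and −0.06. Acot2 had −0.18 in STZ mice and 0.01 in control mice, neither past the test, while its neighbours Acot1 and Acot6 were higher in PVT.

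Ketone enzymes and regulators behaved otherwise. Oxct1 ranged from 278 to 312 CPM in PVT STZ libraries, with a median of 294 CPM, against 306 to 339 CPM in pIC STZ libraries, with a median of 331 CPM. In control mice it was 258, 311, 295 and 239 CPM in PVT, against 321, 322, 337 and 332 CPM in pIC. The control groups did not overlap and the STZ groups did. The log2 difference was −0.14 in STZ mice (adjusted p = 0.0108) and −0.25 in control mice (adjusted p = 0.0324), and 9 of 18 alternatives kept the call in control mice. With upper quartile scaling it passed in neither (adjusted p = 0.0715 in STZ mice and 0.0821 in control mice).

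Ppard, a PPAR expressed widely in brain, ranged from 17.0 to 22.5 CPM in PVT STZ libraries, with a median of 19.8 CPM, against 21.3 to 24.6 CPM in pIC STZ libraries, with a median of 22.6 CPM. In control mice it was 18.5, 21.9, 18.7 and 16.8 CPM in PVT, against 27.7, 24.8, 22.8 and 24.0 CPM in pIC. The log2 difference was −0.21 in STZ mice (adjusted p = 0.02) and −0.39 in control mice (adjusted p = 0.00576), and the STZ value missed the threshold with upper quartile scaling (0.0665) and without the 4 PVT libraries lowest in thalamus markers (0.0926). Bdh1, Ppargc1a and Ppara had values of −0.08, −0.09 and 0.16 in STZ mice, and −0.08, −0.11 and 0.26 in control mice, none past the test. Acat1 had 0.09 in STZ mice (adjusted p = 0.0538) and 0.17 in control mice (0.0421), a call that 5 of 18 alternatives kept.

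**Figure D4:**
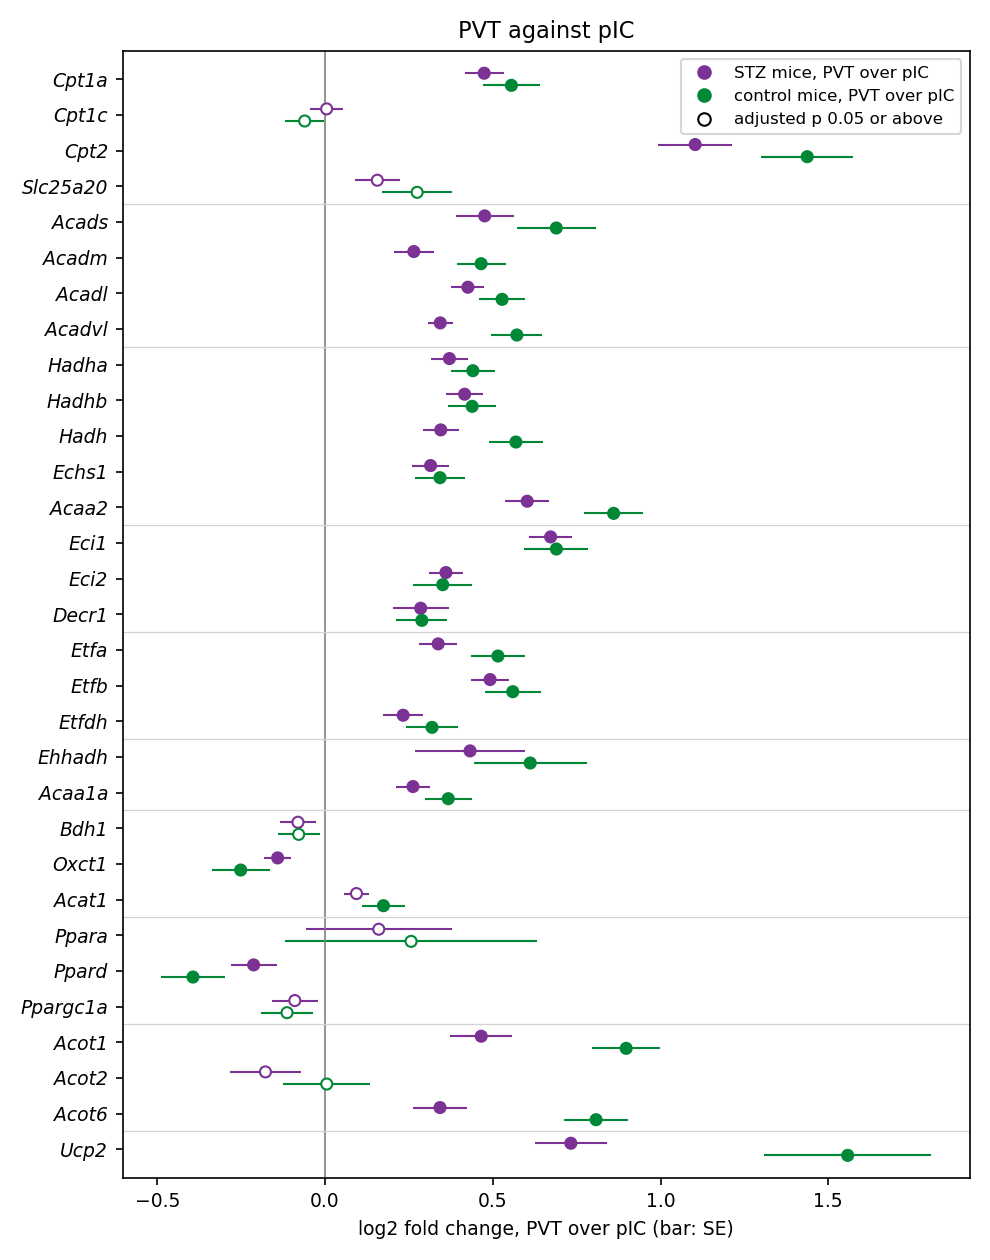
Log2 difference of each member between PVT and pIC, PVT over pIC, in STZ mice (purple, n = 6 libraries a region) and control mice (green, n = 4), with the SE as a bar; filled points have an adjusted p under 0.05. Points lie right of 0 for most oxidation genes and left of 0 for Oxct1, Ppard, Bdh1 and Ppargc1a in both. Acot2 also lies left of 0 in STZ mice, and Cpt1c in control mice.

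Markers of several cell types differed between the regions as well. Oligodendrocyte markers summed to 6570 to 9230 CPM in PVT STZ and 8200 to 10200 CPM in PVT control libraries, against 3000 to 6640 CPM in pIC STZ and 3340 to 4490 CPM in pIC control libraries. Ependyma markers summed to at least 79.4 CPM in PVT and at most 18.7 CPM in pIC libraries, and choroid plexus markers to at least 1390 CPM in PVT and at most 150 CPM in pIC libraries. Astrocytes are the cell type most often linked to brain fatty acid oxidation, and the sums of their markers were closer. They were 4660 to 5410 CPM in PVT STZ and 3920 to 5070 CPM in PVT control libraries. In pIC they were 4510 to 5280 CPM in STZ and 4730 to 5180 CPM in control libraries. Singly, 8 of 12 astrocyte markers were higher and 1 lower in PVT of STZ mice, and 6 were higher and 1 lower in control mice. Their median log2 differences were 0.35 and 0.27. All 6 oligodendrocyte precursor markers were higher in PVT, in STZ and in control mice. Of 10 cortical excitatory neuron markers, 8 were lower and 0 higher in STZ mice, and 6 lower and 1 higher in control mice. Of all genes, 26% were called higher and 23.1% lower in STZ mice, and 25.5% and 22.4% in control mice. The part of these cell types in the region differences was not tested.

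**Figure D5:**
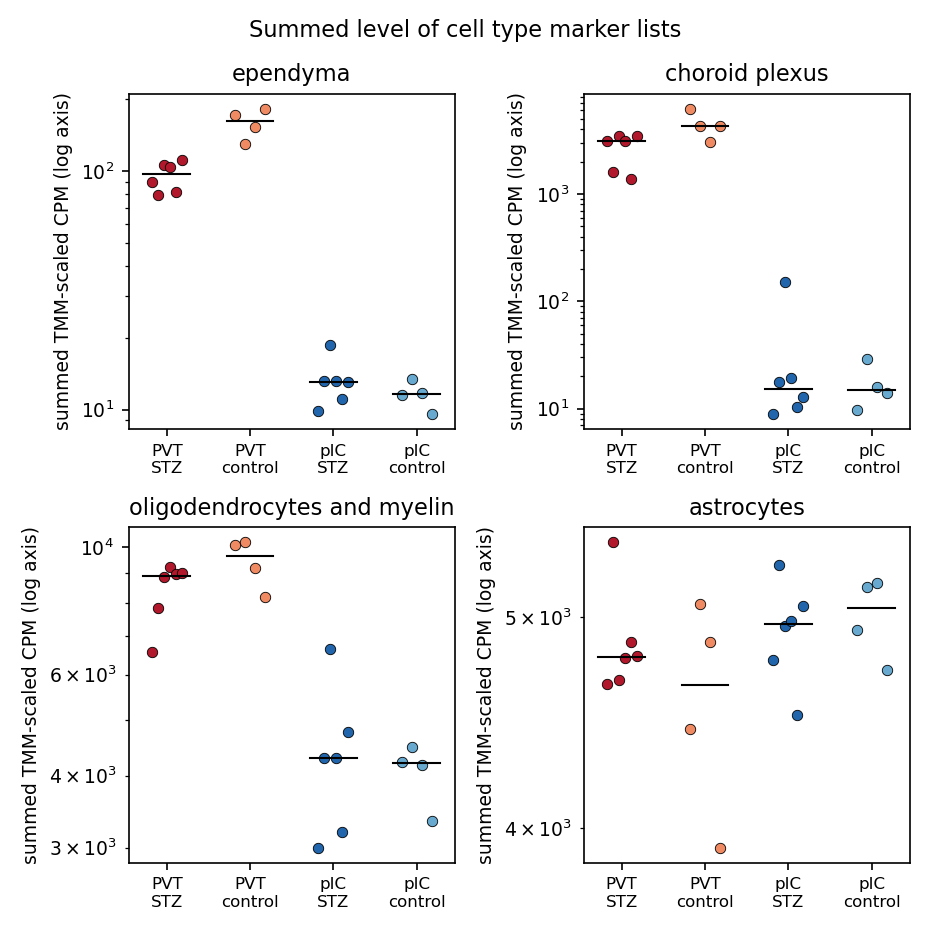
Summed level of 4 marker lists of 12 genes each in every library, in TMM-scaled CPM on a log axis, with a line at the median of each group. Ependyma sums in PVT STZ libraries, 79.4 to 111 CPM, lie below the PVT control libraries, 129 to 182 CPM, and the astrocyte sums of all 4 groups overlap.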

How the data were processed

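Poly(A) RNA was sequenced in 20 libraries. The authors deposited raw counts for 57180 Ensembl genes, checked here as whole numbers with totals of 17.9 M to 25.5 M. The build named is GRCm39 (mm39), per the submitters' processing notes. The aligner, counter, strand setting and annotation were not given in the sources used here. Thus sense and antisense reads of overlapping genes may not be parted. GENCODE vM21, of another build, gave symbols for 51884 identifiers, exon lengths and shared sequence. No 2 libraries of a group were duplicates (lowest chi-square per degree of freedom 3.79).

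Each comparison was fitted on all genes in edgeR 4.0.16 under R 4.3.3 by its robust quasi-likelihood test after TMM scaling, on genes kept by filterByExpr (minimum count 10, total 15), and p was adjusted by Benjamini-Hochberg with calls under 0.05. STZ effects were fitted within a region, their difference as an interaction over 20 libraries, and regions within STZ or control mice. The method was tested on simulated data. Printed CPM use TMM factors over 20 libraries. Limma 3.58.1 and DESeq2 1.42.0, other scalings and filters, a replicate block, 1 fit of all libraries, a minimum fold of 2 and leaving out libraries were alternatives.

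The members, lists and tests were chosen with earlier results of these data known. Named with library values were members called in an STZ comparison or the interaction (or the 3 of smallest p), the 4 higher and 4 lower of largest region difference in control mice, and up to 3 called genes a region of each other list. Of 286 list genes 285 were in the table. RefSeq windows were matched by symbol. Single values of some list genes are not reported here.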

Additional observations from a re-analysis of the deposited data

Results flagged for a closer look

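Among 11 named members in 4 groups, 44 sets of libraries were checked for a library far from the rest, and 2 stood out. Chance gives about 1 in 20. Echs1 was 47.8 CPM in pIC control replicate 2, against 40.8 to 41.8 CPM in the other pIC control libraries. Without that library, the log2 fold change of Echs1 in pIC was −0.1 (edgeR adjusted p = 0.628), beside −0.16. Oxct1 was 306 CPM in pIC STZ replicate 5, against 327 to 339 CPM in the other pIC STZ libraries. The causes were not tested.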

How the results depend on the processing

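In PVT the 2 members called became 1 under RLE scaling, without a count filter and under limma-voom (Acot6 each time). They became 5 under upper quartile scaling and DESeq2, 6 in 1 fit of all 20 libraries and 17 at an unadjusted p. They became 0 with a replicate block and 0 without the 4 PVT libraries lowest in thalamus markers. Calls over all genes fell as well, from 2.07% to 0.422% and 0.413%. Leaving out 1 library gave 1 to 2 members, with 0.83% to 2.02% of all genes called. The exclusion of the 4 libraries and the unadjusted p were chosen after seeing the data. In pIC the 1 member called became 0 in 1 fit of all libraries and 6 at an unadjusted p. Leaving out a pIC library gave 0 to 1, with 0.782% to 1.69% of all genes called, beside 1.4%. The interaction gave 0 under every alternative (0 to 0 on leaving out a library) and 7 at an unadjusted p. With upper quartile scaling the regions gave 24 higher and 1 lower in control mice and 24 and 0 in STZ mice. A minimum fold of 2 left 1 member in control mice and 0 in STZ mice, where 5.25% and 3.6% of all genes passed. Leaving out a library gave 23 to 24 members in control mice and 23 to 25 in STZ mice. No named value changed sign.

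Upper quartile scaling moved the share of PVT calls that were higher to 12.2% (58 higher, 416 lower), beside 22.9% (81 and 272), and DESeq2 moved it to 39% (353 and 551). Over all genes, DESeq2 called 5.29% in PVT and 2.89% in pIC. Equal numbers in STZ and control labels did not pair the libraries (correlations from −0.26 to 0.44 in PVT, 1 of 4 over 0.1, and −0.04 to 0.3 in pIC), and with the block PVT calls over all genes numbered 72, beside 353. Equal labels across regions, which may mark the same mouse, gave −0.09 to 0.21 in 10 pairs, 4 of them over 0.1. The block also ended the PVT calls of Plin2 (adjusted p = 0.122) and Bsg (0.0972). With 4 to 6 libraries a group, the calls of Acads, Slc16a1, Acss1, Slc16a6 and Aldh9a1 in PVT lay just under the threshold.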
